A study of Homo sapiens with 24 samples.

Results

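Metallothioneins and the genes that set cellular zinc were described by 8 rows of the count table: the metallothioneins MT2A, MT1E, MT1F, MT1G, MT1M and MT1X, the transcription factor MTF1 and the zinc exporter SLC30A1. They were taken by symbol from 60683 rows, and 7 of the 8 passed the filter on low counts that left 16196 genes for testing; MT1M did not. Polyadenylated RNA was sequenced from HepG2 cells, a human liver cancer line, after knockout of the endogenous glucocorticoid receptor gene NR3C1 with CRISPR/Cas9 (sg18 in the labels). All cells, controls included, carried this knockout and a lentiviral, doxycycline-inducible receptor with a Ty1 tag, in the wild type form (WT), with K154R, a change that prevents acetylation at that lysine, or with K154Q, a change that mimics it. In all groups receptor expression was induced with doxycycline at 0.3 to 1 µg/mL for 24 h, set to match receptor protein, and washed out for 24 h in charcoal-stripped medium. The last 6 h were spent with the synthetic glucocorticoid dexamethasone at 1 µM or with ethanol as vehicle. The 6 groups of genotype and treatment held 4 libraries each, 24 in all, from 2 experiments with 2 transductions each. The sources used here give neither the experiment behind each replicate number nor how many knockout clones were used.

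Metallothioneins are small cysteine-rich proteins that bind zinc, copper and cadmium and so buffer free metal ions. Their genes are switched on by the zinc-sensing factor MTF1, which binds short metal response elements in their promoters. The same factor acts on SLC30A1, which moves zinc out of the cell across the plasma membrane. Glucocorticoids are a textbook inducer of metallothionein genes, and liver is a main site of their expression. The comparisons below ask whether these transcripts differed with dexamethasone, and whether they differed with the acetylation state of the receptor.

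The 6 metallothionein genes lie together on chromosome 16 and span 75.998 kb in GENCODE release 29 (GRCh38). MT2A is at chr16:56608199-56609497, MT1E at chr16:56625475-56627112, MT1M at chr16:56632233-56633986, MT1F at chr16:56657694-56660698 and MT1X at chr16:56682424-56684196, all on the plus strand. MT1G, at chr16:56666731-56668065, is on the minus strand. MTF1 (chr1:37809567-37859620) and SLC30A1 (chr1:211571568-211578742) are on the minus strand of chromosome 1. All 8 are annotated as protein-coding. The metallothioneins are near copies of each other, so reads can fit several of them: of the distinct stretches of 50 bases in the spliced transcripts of a gene, 18.3% were shared with another gene for MT1X, 16.5% for MT1G, 9.87% for MT1M, 7.10% for MT1E, 3.02% for MT2A and 1.22% for MT1F. The sources used here do not say how multi-mapping reads were counted, so levels of single metallothioneins are uncertain. These shares do not bound that uncertainty, since a low gene such as MT1G shares stretches with the far more abundant MT1E (39 of 844) and MT2A (22 of 844). Most of the shared stretches of MT1X, 273 of 341, were shared with an overlapping gene on the same strand that was listed with 0 counts in all libraries. MTF1 overlaps a gene on the opposite strand, and the strand setting of the counting was not given.

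The start regions were searched for the core of the metal response element, TGCACNC or TGCGCNC, on both strands, because MTF1 is known to act through it. RefSeq promoters of GRCh38.p14, from 250 bases before to 50 after the start, were held for 4 of the 8 members. In this window MT2A had 8 matches, MT1X 4, SLC30A1 2 and MTF1 0. Of 35116 promoters 29.6% had at least 1 match, 8.60% at least 2, 0.601% at least 4 and 0.0200% at least 8. The 250 bases before the start are shown for the 3 promoters with a match, 5′ to 3′ on the strand of the gene, with matches in capitals. They are chr16:56608334-56608583 (plus strand) for MT2A, chr16:56682220-56682469 (plus strand) for MT1X and chr1:211579162-211579411 (minus strand) for SLC30A1. RefSeq and GENCODE put the starts at different places: the MT2A stretch lies inside the GENCODE span of the gene given above, and that of SLC30A1 lies beyond the GENCODE end with a gap between them.
MT2A: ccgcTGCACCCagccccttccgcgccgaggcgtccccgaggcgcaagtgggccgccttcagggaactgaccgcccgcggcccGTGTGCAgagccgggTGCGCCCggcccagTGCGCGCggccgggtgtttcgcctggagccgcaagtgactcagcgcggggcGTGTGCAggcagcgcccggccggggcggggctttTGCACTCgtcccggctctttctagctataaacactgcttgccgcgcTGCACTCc
MT1X: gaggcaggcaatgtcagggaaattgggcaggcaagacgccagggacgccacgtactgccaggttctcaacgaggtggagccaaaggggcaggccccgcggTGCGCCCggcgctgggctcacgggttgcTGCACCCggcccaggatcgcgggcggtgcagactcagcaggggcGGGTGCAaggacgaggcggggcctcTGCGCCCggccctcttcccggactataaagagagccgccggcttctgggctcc
SLC30A1: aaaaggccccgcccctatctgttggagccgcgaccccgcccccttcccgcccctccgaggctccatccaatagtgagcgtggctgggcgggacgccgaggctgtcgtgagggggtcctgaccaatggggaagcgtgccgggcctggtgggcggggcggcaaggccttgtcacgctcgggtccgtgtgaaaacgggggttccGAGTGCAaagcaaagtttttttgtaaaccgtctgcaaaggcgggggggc
The stretch shown holds 7 of the 8 matches of MT2A, all 4 of MT1X and 1 of the 2 of SLC30A1. The others lay within 50 bases after the start. The letters AGAACA, an arm of the steroid receptor element, were not in any of the 4 windows on either strand, against 14.8% of all promoters. Only these exact letters in this window were searched. An element with other letters, or at or beyond the edge of the window, would be missed, so their absence does not show that a gene lacks one. A match is a description of letters, not of binding.

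**Figure D1:**
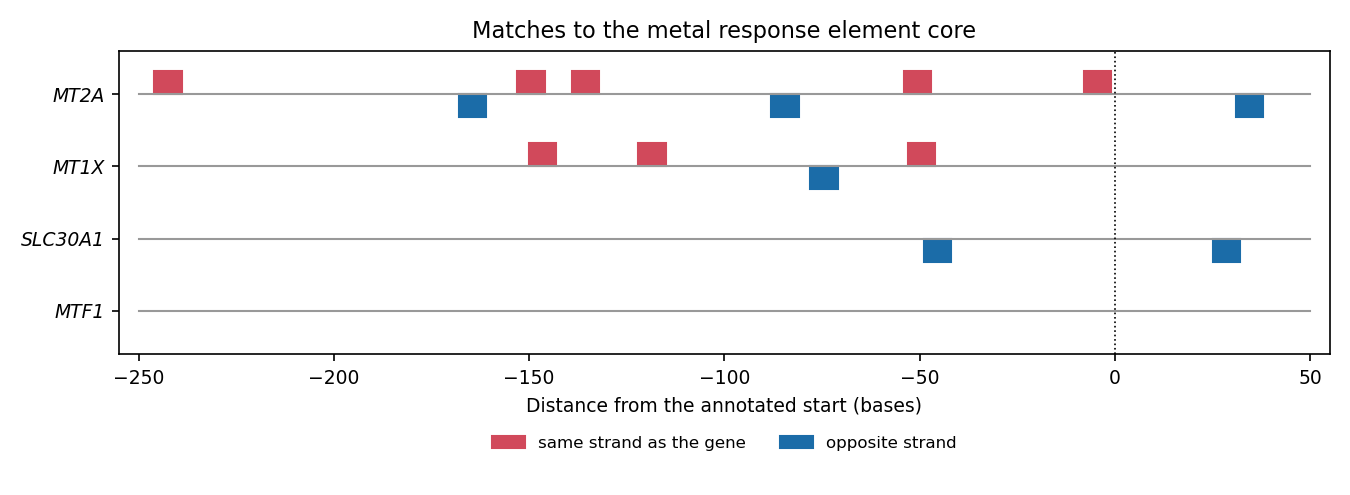
Positions of matches to the metal response element core in 4 promoters, by distance from the annotated start in bases, with matches on the strand of the gene above each line and those on the opposite strand below it. MT2A had 8 matches, MT1X 4, SLC30A1 2 and MTF1 0.

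Library totals ran from 23863672 to 42072021 counts. NR3C1, the gene that was knocked out and put back, was counted at 69.6 to 113 CPM (counts scaled to library size) over the 24 libraries; reads of the lentiviral receptor would count towards it, so it does not check the knockout. FKBP5, a standard glucocorticoid target, was higher with dexamethasone by 0.98 (WT), 1.17 (K154R) and 1.04 (K154Q) on the log2 scale (edgeR quasi-likelihood test with Benjamini-Hochberg adjustment, adjusted p = 3.34e-06, 8.99e-08 and 9.40e-07). Over all genes, 26 (0.161%), 50 (0.309%) and 21 (0.13%) of 16196 were called at an adjusted p under 0.05 in WT, K154R and K154Q. Of the 11 hepatocyte markers all were tested and none was called; among 11 markers of other cells, the leukocyte markers PTPRC and CD3E were at 0 in all libraries, while LYZ, listed as a myeloid marker, stood at 753 ± 168 CPM in the 12 vehicle libraries (SD) and the fibroblast marker PDGFRB at 24.4 ± 5.69 CPM. Over all 24 libraries PECAM1 had 1131 counts, COL1A1 571, VWF 127, CDH5 98, COL3A1 30, CD68 29 and DCN 4.

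MT2A and MT1E carried most of the metallothionein signal. In bulk libraries such as these, fewer expressing cells and less RNA per cell cannot be told apart. CPM here is scaled by TMM factors, and levels of different genes are compared per kilobase of the gene length in the deposited table. MT2A stood at 70.6 ± 22.3 CPM per kb (SD, n = 24 libraries) and MT1E at 34.9 ± 13.9, and MT2A was above MT1E in 24 of 24 libraries. SLC30A1 followed at 11.0 ± 2.44, below MT1E and above MT1G in every library. MT1G (4.16 ± 2.10), MT1X (2.06 ± 0.645), MTF1 (1.91 ± 0.241) and MT1F (1.41 ± 0.608) came next on the same scale, and their order was not fixed. MT1G was above MT1X in 18 libraries, MT1X above MTF1 in 13 and MTF1 above MT1F in 19 of the 24, so MT1X and MTF1 did not differ beyond their spread. MT2A made up 46.6% to 72.5% of the summed CPM of the 6 metallothioneins (median 57.7%), and MT2A with MT1E 84.9% to 95.7% (median 92.1%). The sum was 90.7 ± 23.2 CPM in WT vehicle and 115 ± 34.5 in WT dexamethasone (SD, n = 4). It was 106 ± 44.0 and 143 ± 45.3 with K154R, and 95.1 ± 23.05 and 114 ± 27.0 with K154Q.

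MT1M was at the edge of detection. It had 16 counts over all 24 libraries, between 0 and 3 in a library, and 11 libraries held any. The 16 counts were 2 and 5 in WT vehicle and dexamethasone, 1 and 5 with K154R, and 1 and 2 with K154Q, each over 4 libraries. A library with 0 counts allows up to 3 counts by counting error alone. With 3 counts or fewer in every library, a difference within that range could not be detected at this depth. A rise beyond 3 counts was not seen in any library. The filter removed MT1M from the tests. Without the filter its fitted average log2 fold change with dexamethasone was 1.28 (SE 0.79; edgeR, adjusted p = 1.0), a value that at such counts depends on the prior count of the fit.

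**Figure D2:**
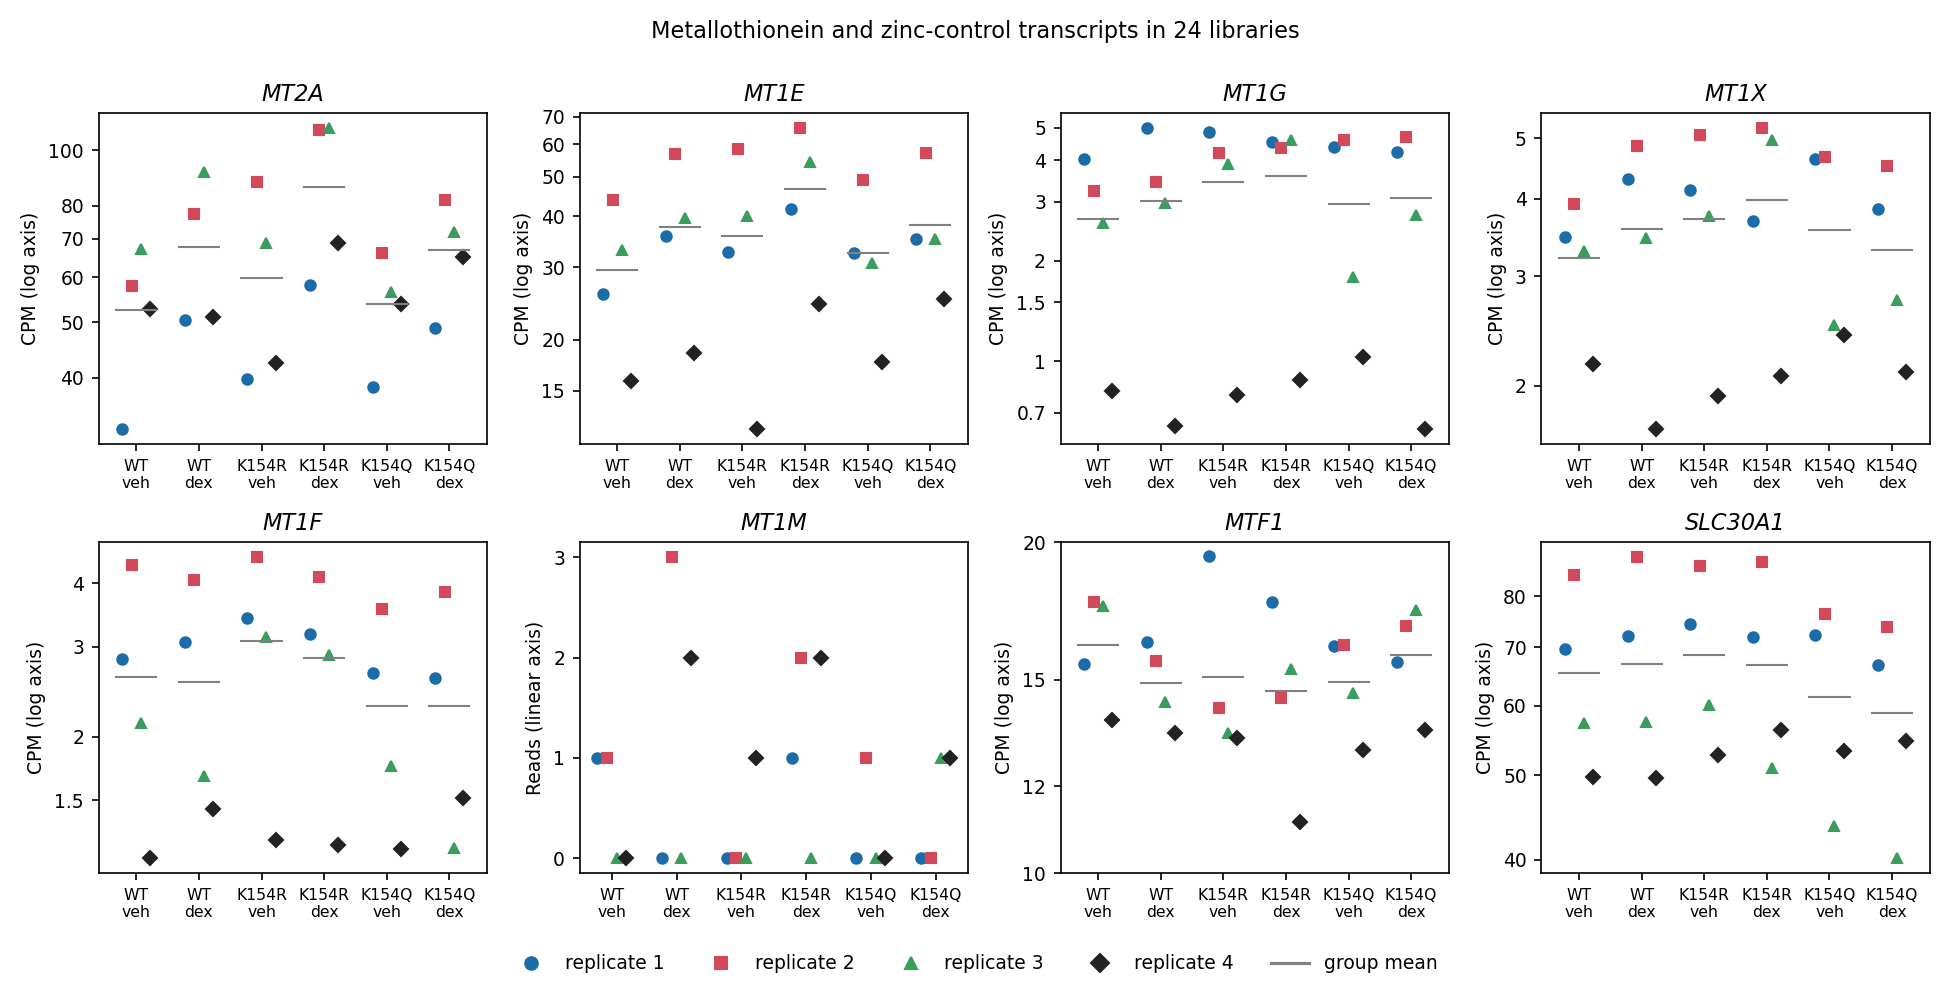
Level of the 8 genes in each of the 24 libraries, by group, with a symbol and colour for each replicate number and a line at the group mean; the vertical axes are CPM on log scales, and reads on a linear scale for MT1M. Replicate 4 is the lowest of its group in 6 of 6 groups for MT1E, MT1G, MT1X and MTF1, and replicate 1 in 6 of 6 for MT2A.

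MT2A, the main metallothionein of these cells, had higher mean levels with dexamethasone in each genotype, but the vehicle and dexamethasone libraries overlapped, as they did for all 7 tested members in all 3 genotypes. All 4 dexamethasone libraries were above all 4 vehicle libraries for 1.41% of all genes in WT, 1.33% with K154R and 1.27% with K154Q. In WT its level in replicates 1 to 4 was 32.5, 57.9, 67.2 and 52.8 CPM with vehicle, and 50.5, 77.4, 91.5 and 51.1 CPM with dexamethasone. Replicate 1 was lowest in both treatments, and replicate 4 was the only number at which the dexamethasone library was not above the vehicle library. With K154R the levels were 39.9, 88.0, 68.9 and 42.5 CPM with vehicle and 58.1, 108, 109 and 68.9 CPM with dexamethasone. With K154R the dexamethasone libraries of replicates 2 and 3 were above every other library of the series. With K154Q they were 38.6, 66.1, 56.6 and 53.8 CPM with vehicle and 48.9, 81.8, 72.0 and 65.2 CPM with dexamethasone. Replicate 1 was again the lowest of each group.

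The fitted log2 fold change of MT2A was 0.36 in WT (95% interval -0.19 to 0.91), 0.53 with K154R (-0.02 to 1.07) and 0.32 with K154Q (-0.23 to 0.87). None passed the test (edgeR quasi-likelihood test, adjusted p = 1.0 in each). Averaged over the 3 genotypes, 12 libraries against 12, the log2 fold change was 0.40 (SE 0.15), a fold of 1.32 (95% interval 1.06 to 1.65), with a raw p of 0.0151 and an adjusted p of 0.454 over all genes by edgeR. Without the filter on low counts the same average was called at a like fold change, 0.40 (SE 0.06; edgeR, adjusted p = 6.26e-09), as was the K154R response, 0.52 (adjusted p = 3.11e-04); the cause was not tested. With the filter, 172 genes (1.06%) were called in this average, and 7.01% had a raw p under 0.05. Without it 325 genes were called in the average and 109 with K154R. A fit that blocks on the number also called MT2A and MT1E in the average, among 685 genes (4.23%). By the rule used, same-numbered WT libraries did not all go together, so that fit is given with the processing. The correlation of their deviations exceeded 0.1 at 3 of 4 numbers in WT and in 11 of 12 pairs of the average. The fit without the block counts the spread by number as error. Its SE for the MT2A average was 0.15, against 0.06 with the block.

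With K154R, deviations of same-numbered libraries went together at all 4 numbers, so a fit that blocks on the number applies there. In that fit MT2A was higher with dexamethasone by 0.54 (SE 0.11) on the log2 scale and was called (edgeR, adjusted p = 0.00440), as was MT1E at 0.44 (SE 0.11, adjusted p = 0.0363). They were 2 of the 7 members tested, in a fit that called 200 genes (1.23%), 190 of them higher (1.17%). The ratio of dexamethasone to vehicle for MT2A at replicates 1 to 4 was 1.46, 1.23, 1.58 and 1.62. The dexamethasone library was higher at 4 of 4 numbers, which held for 9.5% of all genes. When a number was left out of the blocked fit in turn, MT2A lost its call without replicate 1 and kept it without each of the others: it had adjusted p = 0.0668 without replicate 1 and 0.00743, 0.0289 and 0.00822 without replicates 2, 3 and 4, at log2 fold changes of 0.49 to 0.63. MT1E had adjusted p = 0.198, 0.0741, 0.0707 and 0.0701 in the same order, and was called in none of the 4.

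With K154Q the numbers also paired the libraries, and the blocked fit called 117 genes (0.722%), against 21 without the block. MT2A had a log2 fold change of 0.31 (SE 0.11) in it, with an adjusted p of 0.377 by edgeR, and the dexamethasone library was higher at 4 of 4 numbers with ratios of 1.21 to 1.27. For MT1E the blocked value was 0.26 (SE 0.11, adjusted p = 0.6998). The dexamethasone library was higher at 4 of 4 numbers for 12% of all genes with K154Q. No member was called with K154Q in either fit.

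MT1E, the next most abundant metallothionein, differed more between replicate numbers than between treatments. In WT it stood at 25.9, 43.7, 33.1 and 15.9 CPM with vehicle and 35.9, 56.8, 39.5 and 18.5 CPM with dexamethasone, in replicates 1 to 4. With K154R it stood at 32.6, 58.4, 39.95 and 12.1 CPM with vehicle and 41.7, 65.6, 54.4 and 24.5 CPM with dexamethasone. With K154Q it stood at 32.6, 49.0, 30.7 and 17.6 CPM with vehicle and 35.2, 57.1, 35.3 and 25.1 CPM with dexamethasone. Replicate 2 was the highest and replicate 4 the lowest in every group, so the groups overlapped widely. Without the block the log2 fold change with dexamethasone was 0.35 in WT, 0.37 with K154R and 0.23 with K154Q, and 0.32 (SE 0.23) on average (edgeR, adjusted p = 0.876). The ratio with K154R was 1.28, 1.12 and 1.36 in replicates 1 to 3 and 2.03 in replicate 4, whose vehicle library was the lowest of all for this gene.

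**Figure D3:**
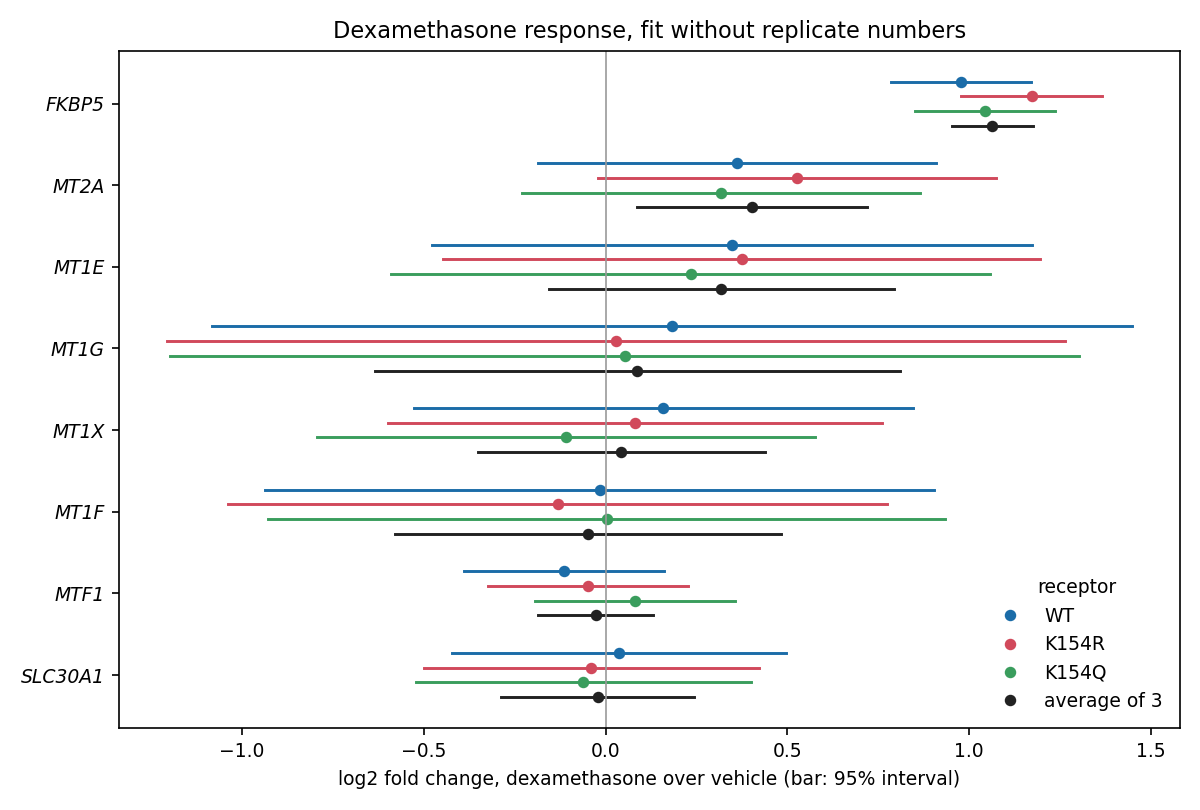
Log2 fold change of dexamethasone over vehicle for FKBP5 and the 7 tested members, with 95% intervals, in WT, K154R, K154Q and their average, from the fit without replicate numbers. The intervals of FKBP5 lie well above 0; among members the average of MT2A, 0.40, is the only estimate whose interval leaves out 0.

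The low metallothioneins gave no response that passed the test in either fit. MT1G had between 0.625 and 4.98 CPM, and an average log2 fold change of 0.09 (95% interval -0.63 to 0.81). MT1X had between 1.70 and 5.19 CPM, and an average of 0.04 (-0.35 to 0.44). MT1F had between 1.15 and 4.495 CPM, and an average of -0.05 (-0.58 to 0.48). All 3 intervals hold the average of MT2A, 0.40. In the blocked fit with K154R the values were 0.08 for MT1G, 0.10 for MT1X and -0.11 for MT1F on the log2 scale (edgeR, adjusted p = 0.962, 0.922 and 0.924). MT1F was lower with dexamethasone at 4 of 4 numbers with K154R, at ratios of 0.916 to 0.978, but at 2 of 4 with K154Q. The share of all genes lower at 4 of 4 numbers was not computed, so this count has no base rate.

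MTF1, the zinc sensor itself, was the steadiest of the tested members. Its level was 16.1 ± 1.84 CPM in WT vehicle and 14.9 ± 1.27 with dexamethasone (SD, n = 4). It was 15.1 ± 2.94 and 14.6 ± 2.703 with K154R, and 14.9 ± 1.51 and 15.8 ± 1.70 with K154Q. The average log2 fold change was -0.03, and its 95% interval of -0.19 to 0.13 was the narrowest of the 7. SLC30A1, the exporter, was 65.3 ± 15.3 and 67.0 ± 17.2 CPM in WT, 68.5 ± 15.2 and 66.7 ± 16.6 with K154R, and 61.4 ± 15.5 and 58.9 ± 14.8 with K154Q, vehicle before dexamethasone. Its average log2 fold change was -0.02 (95% interval -0.29 to 0.24). Neither passed the test (edgeR, adjusted p = 0.969 for MTF1 and 0.987 for SLC30A1).

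**Figure D4:**
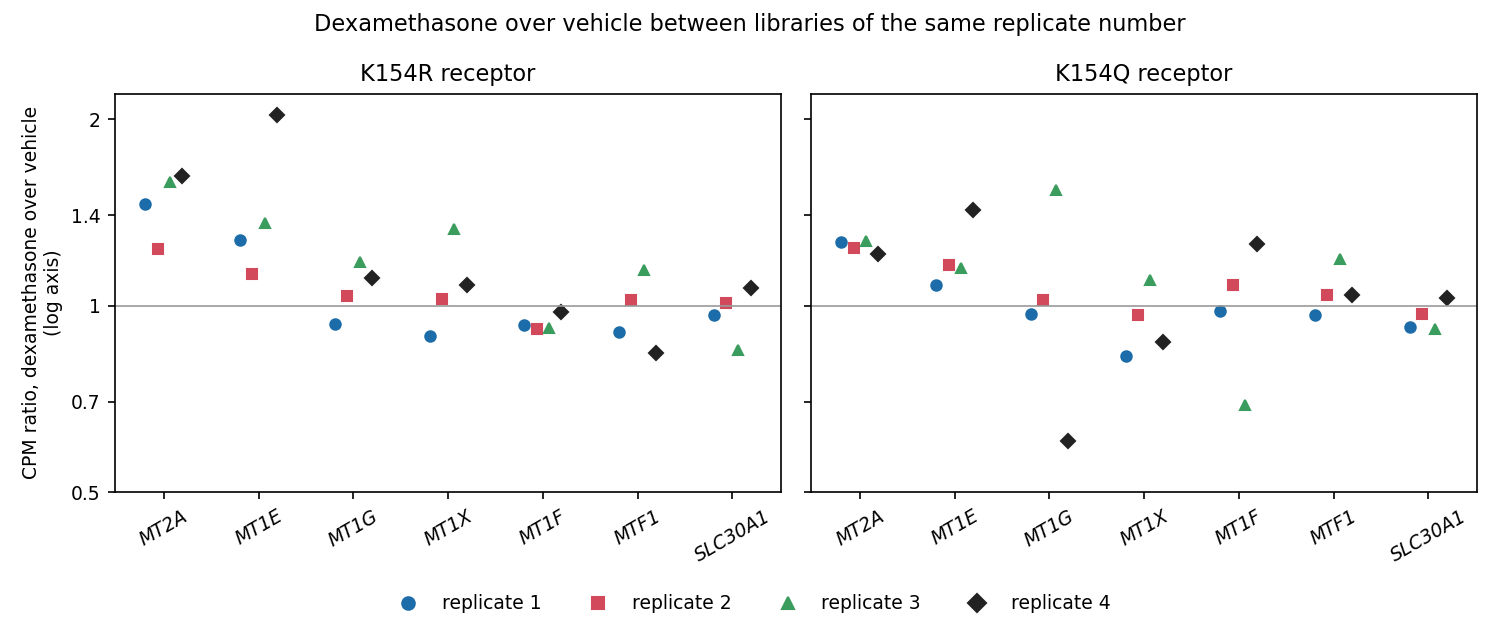
Ratio of CPM with dexamethasone to vehicle between libraries of the same replicate number, on a log axis, for the 7 tested members with K154R and K154Q. All 4 ratios lie above 1 for MT2A and MT1E in both panels, while those of MT1G, MT1X, MTF1 and SLC30A1 lie on either side of 1.

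No difference between receptor genotypes was called for any member. The test asked with 2 degrees of freedom whether the 3 genotypes differed, in vehicle, under dexamethasone or in the response, and each of the 7 members had an adjusted p of 1.0 by edgeR in all 3 comparisons. The same comparisons called 0 genes of 16196 (0%), while 174, 261 and 92 genes had a raw p under 0.05, and DESeq2 called 0, 1 and 0. With the replicate block, which applies to the vehicle comparison, 9 genes (0.0556%) were called there and none was a member. For MT2A the K154R response exceeded that of WT by 0.16 on the log2 scale (SE 0.37, 95% interval -0.61 to 0.94), and the K154Q response minus that of WT was -0.04 (SE 0.38, -0.82 to 0.73). Under dexamethasone MT2A with K154R minus WT was 0.35 (SE 0.26, -0.20 to 0.90), its raw p over the 3 genotypes being 0.308. This raw p depended on the fit. With the replicate block, which by the rule does not apply there, it was 0.00416 (edgeR, adjusted p = 0.393), again without a call. In that blocked comparison 1545 genes had a raw p under 0.05. For MT1E the K154R response minus that of WT was 0.03 (SE 0.56, -1.14 to 1.19), and for SLC30A1 it was -0.08 (SE 0.32, -0.73 to 0.57). These intervals do not show that the receptors act alike on these genes. That the blocked fit called MT2A with K154R and not with K154Q does not by itself show a difference between them. The test of the response gave no call, which does not show that they are alike either.

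The replicate number, not the group, went with most of the spread of these genes; what a shared number stands for is not stated in the labels. Of the sum of squares of log2 CPM over the 24 libraries, the share that went with the number was 92.9% for MT1G, 84.7% for MT1F, 84.3% for SLC30A1, 82.9% for MT1X, 82.1% for MT1E, 60.2% for MT2A and 56.1% for MTF1. The median over all tested genes was 42.5%. The share that went with the 6 groups was 1.77% for MT1G and 29.01% for MT2A, against a median of 14.5% over all genes and 95.7% for FKBP5. Only 0.0432% of tested genes had a larger number share than MT1G. A test of the number, chosen after this spread was seen, called all 7 members, from an adjusted p of 6.70e-11 for MT1E to 8.76e-04 for MTF1 by edgeR; it also called 63.4% of all genes.

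MT1G showed the widest range. Its mean was 4.4996, 4.09, 3.10 and 0.798 CPM over the 6 libraries of replicates 1 to 4, a ratio of 5.64 between the highest and the lowest number. The highest replicate 4 library, at 1.03 CPM, was below the lowest library of any other number, at 1.79. The ratio was 3.13 for MT1F, 2.91 for MT1E, 2.28 for MT1X, 1.79 for MT2A, 1.61 for SLC30A1 and 1.29 for MTF1. Replicate 4 was the lowest in 6 of 6 groups for MT1E, MT1G, MT1X and MTF1 (2.36% of all genes), and in 5 of 6 for MT1F. MT2A went otherwise, with replicate 1 the lowest in 6 of 6 groups (2.74% of all genes) and means of 44.7, 79.9, 77.5 and 55.7 CPM. The numbers were singled out after they were seen to be lowest; for 9.78% of all genes some number was the lowest in 6 of 6 groups. SLC30A1 split the numbers into a higher and a lower pair, with means of 71.2 and 83.0 CPM in replicates 1 and 2 and 51.6 and 52.7 CPM in replicates 3 and 4. The share of mitochondrial messenger RNA was 5.16% to 8.51% in the replicate 4 libraries and 6.68% to 9.16% in the others, and totals were 23863672 to 35027597 counts in replicate 4; their part in these patterns was not tested.

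The number test called 3 of the 4 tested markers of other cells, beside 63.4% of all genes. The 11 such markers, whose sum is almost all LYZ (552319 counts against 19281 for PDGFRB, the next), summed to 836 to 877 CPM in the libraries of replicate 1, 502 to 626 in replicate 2, 768 to 1049 in replicate 3 and 619 to 783 in replicate 4. LYZ, a lysozyme, had 87.6% of its spread with the number and PDGFRB, a growth factor receptor, 84.1%. The sum of the markers reached its lowest values in replicate 2, in a range that overlapped replicate 4. In replicate 2 MT1E, MT1F, MT1X, MT2A and SLC30A1 had their highest means. For MT2A the mean was 79.9 CPM there and 77.5 CPM in replicate 3. MT1G and MTF1 had their highest means in replicate 1. The 11 hepatocyte markers summed to 46587 to 59300 CPM over all libraries, and their median number share was 41.9%. The part of these genes in the spread of the members was not tested.

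**Figure D5:**
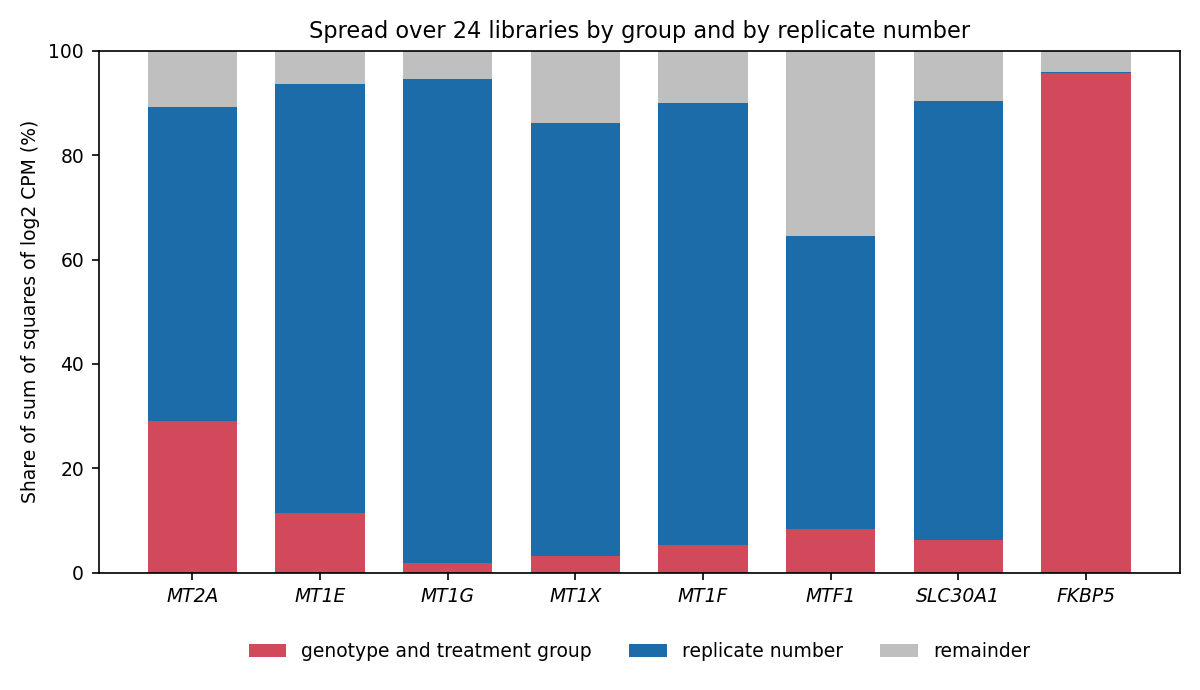
Share of the sum of squares of log2 CPM over 24 libraries that went with the genotype and treatment group, the replicate number and neither, in percent, for the 7 tested members and FKBP5. The number takes 56.1% to 92.9% in the members and 0.306% in FKBP5.

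Over the libraries MT1X varied closely with the other MT1 genes tested, and MT2A varied less closely with them, most of all with MT1E. Pearson's r of log2 CPM over the 24 libraries, which share the replicate numbers and so are not independent, is given as a description. It was 0.93 between MT1X and MT1G, 0.89 between MT1X and MT1F, 0.87 between MT1X and MT1E and 0.74 between MT1X and SLC30A1. Between MT1X and MTF1 it was 0.56. Among tested genes by r with MT1X, MT1G ranked 1, SLC30A1 155 and MTF1 1050. For MT2A r was 0.63 with MT1E, which ranked 159 among tested genes, and 0.33 with MT1X. With MT1F, MT1G, SLC30A1 and MTF1 the r of MT2A was 0.21, 0.17, 0.07 and -0.14. Shared reads between near copies could raise such values, which was not tested. The genes outside the members most like MT2A were GGT5 (0.91), ESAM (0.86) and TSPAN4 (0.84). Those most like MT1X were SGO2 (0.91), BUB1 (0.89) and NOL11 (0.88), and those most like SLC30A1 were NDC1 (0.97), HMMR (0.95) and TNFRSF19 (0.95). SGO2 and BUB1 act at chromosomes in mitosis.

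Other genes of metal handling gave no call in any of the 7 comparisons. Of 15 further metallothionein rows 1 was tested, MT1A, at 0.486 ± 0.161 CPM with vehicle and 0.546 ± 0.169 with dexamethasone (SD, n = 12). Another 8 of these rows were at 0 in all libraries. Of 9 further SLC30 zinc exporters 6 were tested and 1 had a raw p under 0.05 in the average response, SLC30A7, which loads zinc into the secretory pathway, at a log2 fold change of 0.10 (edgeR, adjusted p = 0.688). Of 14 SLC39 zinc importers 12 were tested and 1 had such a p, SLC39A11, at 0.12 (adjusted p = 0.584).

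All 13 genes of copper handling were tested. STEAP2, a metalloreductase, came closest to a call, at 12.4 ± 1.30 CPM with vehicle and 14.7 ± 1.55 with dexamethasone (SD, n = 12) and a log2 fold change of 0.25 (SE 0.06; edgeR, adjusted p = 0.0671). Of 12 genes of metal and oxidative stress, all tested, HMOX1, the heme oxygenase that metals and oxidants induce, had a log2 fold change of -0.28 (adjusted p = 0.610), at 49.9 ± 11.4 CPM with vehicle and 41.1 ± 8.19 with dexamethasone. The median average log2 fold change was 0.04 for exporters, 0.03 for importers, 0.01 for copper handling and -0.05 for stress genes, against -0.01 over all tested genes. The number test called 5 of the 6 exporters, 9 of the 12 importers, 11 of the 13 copper genes and 11 of the 12 stress genes, beside 63.4% of all genes.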

How the data were processed

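Poly(A) RNA of 24 HepG2 cultures was sequenced with a directional kit from 300 ng RNA (RIN 8.6 or more), in 6 groups of 4 taken from the titles. The authors deposited raw counts by gene for all 24 libraries, with no normalization. Per the submitters' processing notes, the tools were bcl2fastq 2.20.0.422, cutadapt 3.7, STAR 2.7.6a and featureCounts 2.0.3, with build GRCh38.p13; the sources used here give no annotation release, strand setting or treatment of multi-mapping reads.

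Counts were analysed with edgeR 4.0.16 in R 4.3.3: filterByExpr with the 6 groups, TMM scaling, a quasi-likelihood fit with 1 mean per group and no replicate block, and Benjamini-Hochberg adjustment over 16196 genes, called at an adjusted p under 0.05. SE is |log2 fold change| over the square root of F; ± marks the SD. Genotype questions used F tests with 2 degrees of freedom. Log2 CPM used a prior count of 2. The 24 libraries are called replicates by the labels, and p-values measure the spread between them. All 36 replicate pairs differed by more than sampling noise (chi-square per degree of freedom at least 12.6). Over whole libraries, replicate spread therefore exceeded counting error. This was not checked gene by gene. Counting error also adds to the spread of low members, such as MT1G and MT1F with as few as 19 and 30 counts in a library, and it limits MT1M. The fitting script was tested on simulated counts with the fit without a block. These counts held no effect of the replicate number, so that test does not cover the spread by number in the data.

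Replicate numbers were taken to pair libraries where every same-number correlation of deviations from group means exceeded 0.1: K154R (lowest r 0.264), K154Q (0.381) and the vehicle comparison (0.265); not in WT (0.0504), the average (0.0504), the difference of responses (-0.0459) or under dexamethasone (0.0112). Gene positions come from GENCODE release 29 and promoters from RefSeq. The 8 members were always named. Up to 3 genes per context list with the lowest p in the average response, and the genes of highest r, could be named by rule. Members and lists were chosen with earlier results of these data known. The alternatives tried were the replicate block, DESeq2 1.42.0, RLE scaling, no filter, subsets of numbers or genotypes, and leaving out each library. Blocks on 3 numbers and the test of the number were added after the data were seen.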

Additional observations from a re-analysis of the deposited data

Results flagged for a closer look

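Of 42 combinations of a tested member and a group of 4 libraries, 2 had a library far from the other 3, a gap over range above the 95% critical value of Dixon's test; chance alone marks about 1 in 20 groups. MT1G in replicate 4 of K154R with dexamethasone was at 0.88 CPM, the lowest of its group by 0.937 of the range. MTF1 in replicate 1 of K154R with vehicle was at 19.4 CPM, the highest of its group by 0.86 of the range.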

How the results depend on the processing

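With RLE size factors no count of called genes moved by over 1.5 times. In the order WT, K154R, K154Q and average response, 26, 50, 21 and 172 genes were called; with no filter on low counts these were 78, 109, 72 and 325, with 27 between genotypes in vehicle and 32 under dexamethasone, and 1 member with K154R (MT2A) and 2 on average (MT2A and MT1E) were called. How many genes were tested without the filter is not given here. DESeq2 called 55, 77 and 47 in the 3 genotypes and 1 gene under dexamethasone. The libraries of 1 genotype alone gave 16, 24 and 12. Replicates 1 and 2 alone gave 5, 10, 4 and 76, with 1 in vehicle and 1 under dexamethasone. Replicates 3 and 4 alone gave 0, 6, 2 and 56, with 5 and 5. Fewer libraries entered the last 3 settings; for the others the cause was not tested.

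With the replicate block the counts were 128, 200, 117 and 685, with 9 in vehicle and 10 under dexamethasone, and 2 members were called with K154R and 2 on average. For WT, the average, the difference of responses and the dexamethasone comparison the rule for pairing was not met. Correlations over 0.1 were found for 3 of 4, 11 of 12, 55 of 60 and 10 of 12 same-number pairs, in that order. The dexamethasone library was higher in 11 of 12 same-number pairs over the 3 genotypes for MT2A and in 12 of 12 for MT1E. The share of all genes with such counts of pairs was not computed. The blocked fit gave MT2A 0.36 in WT (edgeR, adjusted p = 0.157) and 0.40 on average (7.99e-05). It gave MT1E 0.33 in WT (0.233) and 0.34 on average (7.81e-04). The 685 genes called on average were 4.23% of those tested. A block within each genotype gave 1037 of 16196 genes and 2 members on average, MT2A at 0.41 (1.88e-06) and MT1E at 0.35 (9.28e-05). The block on 3 numbers, without replicates 1, 2, 3 and 4 in turn, called 134, 112, 245 and 106 genes with K154R and 83, 72, 116 and 69 with K154Q, with 1 member (MT2A) called with K154R in all but the first. The block changed no other call of a member.

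Leaving out each library in turn gave 19 to 30 genes in WT, 15 to 28 with K154Q, 157 to 234 on average and 23 to 67 with K154R. With K154R the count was 32 without vehicle replicate 2, 29 without vehicle replicate 3, 33 without dexamethasone replicate 2 and 23 without dexamethasone replicate 4. No member was called in any of these fits. MT2A stayed above 0 in every one, at 0.34 to 0.48 on average, but its value in a genotype moved by over 1.5 times: 0.18 (without dexamethasone replicate 3) to 0.52 in WT and 0.18 (without vehicle replicate 1) to 0.44 with K154Q. With K154R it ranged from 0.37 to 0.77. MT1E ranged from 0.083 (without dexamethasone replicate 2) to 0.60 (without vehicle replicate 2) in WT, from 0.096 (without vehicle replicate 4) to 0.71 (without vehicle replicate 2) with K154R and from 0.23 to 0.43 on average. All tested members but MT2A changed sign in some fit, always without a call. In WT the ranges were -0.12 to 0.19 for SLC30A1, -0.33 to 0.35 for MT1F, -0.17 to 0.53 for MT1G and -0.023 to 0.40 for MT1X. With K154R they were -0.15 to 0.10 for MTF1, -0.20 to 0.094 for SLC30A1, -0.37 to 0.13 for MT1F, -0.27 to 0.36 for MT1G and -0.12 to 0.30 for MT1X. With K154Q they were -0.19 to 0.087 for SLC30A1, -0.022 to 0.50 for MT1E, -0.38 to 0.30 for MT1F, -0.23 to 0.39 for MT1G and -0.30 to 0.054 for MT1X. On average they were -0.060 to 0.030 for MTF1, -0.075 to 0.032 for SLC30A1, -0.17 to 0.073 for MT1F, -0.030 to 0.20 for MT1G and -0.022 to 0.13 for MT1X.

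MT1F with K154Q turned from 0.0026 to -0.0052 with the block, -0.11 in replicates 3 and 4, -0.0016 in the libraries of K154Q alone and -0.00031 in DESeq2, and to -0.070 and -0.080 with the block without replicate 2 and without replicate 4. In replicates 1 and 2 MT1G was -0.034 with K154R and -0.0070 with K154Q, and MT1X was -0.052 with K154R. MT1X in WT was -0.083 in replicates 3 and 4. With the block on 3 numbers, K154R gave 0.020 for SLC30A1 and -0.020 for MT1X without replicate 3 and 0.0063 for MTF1 without replicate 4, and K154Q gave -0.10 for MT1G without replicate 3. No member of these was called.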
